A study of Mus musculus with 18 samples.

Results

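The potassium channel genes of the mouse retina were taken as every gene in the count files whose symbol starts with Kcn, goes on with letters and ends in a number, which excluded antisense and overlapping transcripts. There were 92 such genes among 35006 gene names, and the 65 with a mean of at least 0.5 CPM (counts scaled to a common library total) over all libraries were analysed for effects. Poly(A) RNA of whole retina was sequenced from male mice in 18 libraries, with 3 WT, 6 WT + NACET, 4 Akita and 5 Akita + NACET libraries. WT mice were C57BL/6J and normoglycemic, and Akita mice were C57BL/6-Ins2Akita/J heterozygotes, in which a misfolded insulin damages the pancreatic beta cells and causes diabetes early in life. NACET, the ethyl ester of N-acetylcysteine and a cell-permeable source of cysteine, was dissolved at 0.33 mg/mL in the water that treated mice drank between week 4 and week 24 of age (50 mg/kg daily), and untreated mice received the vehicle, plain water. All groups thus shared sex, tissue and age, and no cell type was sorted. Labels number the libraries of a group without naming the animals, so p-values measure the spread between these libraries only.

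Potassium channels let potassium leave or enter cells along its gradient, which sets the resting potential, ends action potentials and shapes light responses. Voltage-gated channels open on depolarization, inward rectifiers hold the resting potential and carry potassium into glia, two-pore domain channels leak at rest, and calcium- or sodium-activated channels couple firing to ion entry. In photoreceptors, channels that hold the silent subunit Kcnv2 carry a large part of the current that balances the dark current, while Kcnj10 serves potassium buffering in Mueller glia and Kcnj13 the apical membrane of the pigment epithelium.

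Libraries held between 11495596 and 17814480 gene counts, of which the 92 genes took 36505 to 54612. Rod markers, the largest retinal class, were present in every library. Reads that aligned uniquely but outside exons made up 9.67 to 13.3% in Akita, 14.9 to 17.1% in WT, 14.3 to 19.8% in Akita + NACET and 9.55 to 16.5% in WT + NACET libraries. Akita replicate 4 stood apart from the other Akita libraries, with a summed level of 4314 CPM for the 65 genes against 2842 to 3189 CPM, and with a summed level of 7 rod markers of 199099 CPM against 130425 to 144527 CPM. It was also low in ganglion cell markers, at 580 CPM against 1235 to 1416 CPM, and in Mueller glia markers, at 1664 CPM against 2654 to 3090 CPM, and the part of this in the channel results was not tested.

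Of the 92 genes, 27 did not reach the threshold, and 1 of these, Kcnk16, a two-pore channel known from pancreatic islets, had no count in any library. Just below the threshold were Kcnn3 (mean 0.430 CPM) and Kcnt2 (0.432 CPM), and just above it Kcnj8 (0.557 CPM) and Kcnq5 (0.581 CPM). Kcnq3, a subunit of M-current channels, was also below it. The 65 genes covered 24 of 30 voltage-gated pore-forming genes, 11 of 15 inward rectifiers, 8 of 14 two-pore genes, 7 of 10 silent modifiers, 5 of 8 calcium- or sodium-activated genes and 10 of 15 auxiliary subunits. Per kilobase of exon, the highest level belonged to Kcnj14, an inward rectifier subunit, with 251 CPM per kb. Kcnv2 followed with 127 CPM per kb, Kcnab2, a cytosolic beta subunit, with 87.9 CPM per kb, and Kcne2, a small membrane beta subunit, was also among the 5 highest with 46.7 CPM per kb. The glial Kcnj10 stood at 3.53 CPM per kb and Kcna3, a delayed rectifier, at 1.16 CPM per kb.

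Promoter sequence is shown for 3 of the genes that fell together in Akita retina, to let the start regions of a Kv1, a Kv3 and a G protein-gated channel be compared. These are the 250 bases before the annotated start, from RefSeq on GRCm38.p6, read 5′ to 3′ on the gene's strand, for Kcna3 (chr3:107035912-107036161, plus strand), Kcnc1 (chr7:46396218-46396467, plus strand) and Kcnj9 (chr1:172329323-172329572, minus strand). Capitals mark GGGCGG, the GC box, or TAATCC, the core bound by the photoreceptor factor CRX and its relatives, on either strand.
Kcna3: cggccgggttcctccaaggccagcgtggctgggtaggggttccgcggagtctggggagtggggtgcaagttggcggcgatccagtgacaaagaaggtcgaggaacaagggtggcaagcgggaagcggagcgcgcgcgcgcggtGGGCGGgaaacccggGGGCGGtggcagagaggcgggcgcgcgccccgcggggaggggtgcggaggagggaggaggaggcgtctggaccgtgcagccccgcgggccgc
Kcnc1: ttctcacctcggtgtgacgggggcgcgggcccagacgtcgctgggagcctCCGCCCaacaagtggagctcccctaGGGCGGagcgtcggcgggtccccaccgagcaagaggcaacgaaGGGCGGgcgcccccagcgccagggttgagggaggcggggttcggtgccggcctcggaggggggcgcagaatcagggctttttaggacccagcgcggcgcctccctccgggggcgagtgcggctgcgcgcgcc
Kcnj9: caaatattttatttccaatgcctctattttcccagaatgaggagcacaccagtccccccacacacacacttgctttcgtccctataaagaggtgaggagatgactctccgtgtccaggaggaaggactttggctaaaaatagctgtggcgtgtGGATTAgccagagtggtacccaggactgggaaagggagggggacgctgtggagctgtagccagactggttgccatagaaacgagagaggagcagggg

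The Kcna3 and Kcnc1 windows were 74.4% G and C and held 2 and 3 GC boxes, whereas the Kcnj9 window was 52.0% G and C and held none. The table matched 47 of the 65 genes, with 68 windows. GGGCGG stood in 32 of these windows (47.1%) against 32.7% of all 32851 windows of this length, and TAATCC in 1 (1.47%), that of Kcnj9, against 6.25%. TGACGTCA, the cyclic AMP response element, stood in none of the 68 and in 1.55% of all windows. Windows on mouse chromosome 18, where Kcnn2 lies, were not used, and a match of letters is a description only.

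The first comparison asked how potassium channel expression differed between diabetic and normoglycemic retina. In Akita retina 11 of the 65 genes were lower and 1 was higher than in WT (edgeR, adjusted p of at most 0.05), and 9 of the 11 were voltage-gated pore-forming genes, among them Kcna1, Kcna3, Kcna4, Kcnb2, Kcnc1, Kcnd3, Kcnh1 and Kcnh2. The other two were Kcnj9, a G protein-gated inward rectifier, and Kcnn2, a small conductance calcium-activated channel. Kcnj14 was the gene that rose. Fold changes of the 65 genes had a median of −0.44 on the log2 scale, with 54 negative, against a median of −0.01 over all 16183 genes tested. Without WT replicate 1 the median of the 65 was −0.26. Among all genes tested 7.64% were called, 3.68% lower and 3.96% higher, against 16.9% lower and 1.54% higher among the 65. The 4 Akita and 3 WT libraries did not overlap for 23 of the 65 genes (35.4%), with Akita below WT for 21 of them, against 23.2% of all genes tested in either direction.

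**Figure D1:**
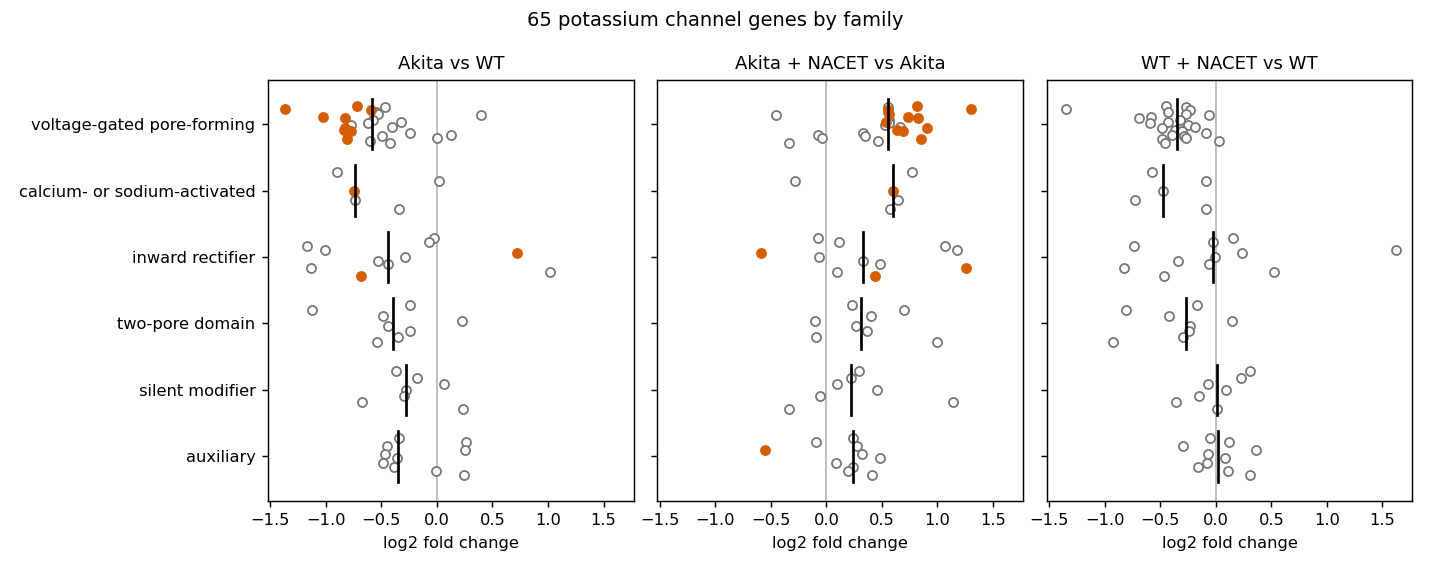
log2 fold change (x axis) of the 65 potassium channel genes by family (y axis) in 3 comparisons (Akita vs WT on the left, then the NACET effect in Akita and in WT retina); each point is a gene, filled where the adjusted p was at most 0.05, and the black bar is the family median. From left to right the voltage-gated genes had medians of −0.59, 0.56 and −0.35, and no gene was called in the right panel.

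Kcna3 (mm9 chromosome 3, 106839080 to 106841047, plus strand) is a delayed rectifier of neurons, microglia and lymphocytes. Its level was 4.595, 3.44 and 2.59 CPM in the WT libraries and 0.842, 1.68, 0.816 and 2.16 CPM in the Akita libraries. In the Akita + NACET libraries it was 3.93, 2.48, 1.60, 2.36 and 6.47 CPM, and WT + NACET ranged from 0.986 to 2.05 with a median of 1.34 CPM. Every Akita and every WT + NACET library was thus below every WT library, while Akita + NACET libraries spread over both ranges. The change in Akita was the largest of the called genes, −1.37 ± 0.41 (log2 fold change ± SE, adjusted p = 0.0477).

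Kcnb2 (chromosome 1, 15302533 to 15701710, plus strand), a delayed rectifier, was at 13.8, 10.8 and 9.81 CPM in WT retina. Akita libraries had 5.96, 5.85, 4.83 and 5.80 CPM, and Akita + NACET libraries 9.99, 9.90, 7.15, 8.08 and 11.5 CPM. WT + NACET libraries ranged from 4.93 to 9.79 with a median of 7.56 CPM. The 4 Akita libraries lay close together, below all WT and all Akita + NACET libraries. Kcnb2 fell by 1.03 on the log2 scale in Akita vs WT (SE 0.20, adjusted p = 0.0155), the smallest adjusted p among the 65 genes in this comparison.

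Kcnc1 (chromosome 7, 53651867 to 53693745, plus strand) encodes a fast delayed rectifier that permits high firing rates. WT libraries had 77.5, 63.2 and 48.1 CPM, Akita libraries 26.7, 37.3, 37.6 and 40.0 CPM, and Akita + NACET libraries 77.5, 50.0, 51.4, 54.2 and 80.5 CPM. WT + NACET libraries ranged from 27.1 to 51.4 with a median of 38.9 CPM. Akita did not overlap with WT or with Akita + NACET, and 3 of the 6 WT + NACET libraries lay within the Akita range. The difference between Akita and WT was −0.83 ± 0.22 (adjusted p = 0.0333).

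Kcnd3 (chromosome 3, 105255248 to 105476920, plus strand), a transient A-type channel, was at 21.5, 15.9 and 15.4 CPM in WT and at 10.7, 10.4, 9.86 and 8.70 CPM in Akita retina. Akita + NACET libraries had 16.6, 18.9, 15.1, 17.5 and 24.8 CPM and WT + NACET libraries 9.15 to 17.1 with a median of 12.02 CPM. Untreated Akita was again separate from WT and from Akita + NACET. Its difference from WT was −0.83 ± 0.20 (adjusted p = 0.0237). A transcript on the opposite strand, 1700095B22Rik, shares up to 165 exonic bases with Kcnd3, and counting did not use strand.

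Kcnh1 and Kcnh2 encode channels of the ether-a-go-go class, and Kcnh2 is also the rapid delayed rectifier of the heart. Kcnh1 stood at 8.33, 9.99 and 6.80 CPM in WT, at 4.49, 5.04, 5.27 and 3.81 CPM in Akita and at 6.48, 7.54, 6.51, 5.97 and 9.80 CPM in Akita + NACET libraries. Kcnh2 stood at 38.3, 42.9 and 24.1 CPM in WT, at 19.3, 24.7, 22.0 and 15.997 CPM in Akita and at 25.9, 33.8, 29.2, 35.1 and 41.4 CPM in Akita + NACET libraries. Akita was separate from WT for Kcnh1, whereas 1 Akita library exceeded the lowest WT library for Kcnh2. The differences from WT were −0.84 ± 0.19 for Kcnh1 (adjusted p = 0.0200) and −0.77 ± 0.19 for Kcnh2 (adjusted p = 0.0235).

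Kcna1 and Kcna4, pores of the Kv1 class, differed by −0.72 ± 0.21 (adjusted p = 0.0461) and −0.60 ± 0.18 (adjusted p = 0.0425). Kcna1 was at 23.7 to 32.5 CPM in the 3 WT and 13.6 to 18.4 CPM in the 4 Akita libraries, and Kcna4 at 13.5 to 17.2 and 8.41 to 11.4 CPM, so neither overlapped between those groups.

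Kcnj9 (chromosome 1, 174251164 to 174259394, minus strand) is a subunit of channels opened by G protein-coupled receptors. Its level was 51.0, 45.9 and 35.9 CPM in WT, 29.4, 31.6, 24.8 and 24.0 CPM in Akita and 37.0, 40.5, 33.8, 34.8 and 39.8 CPM in Akita + NACET libraries. All Akita values were below both other groups, and Akita + NACET overlapped with the lower part of the WT range. The difference of Akita from WT was −0.69 ± 0.14 (adjusted p = 0.0162). Kcnn2, whose small conductance channels follow calcium entry, was at 10.6, 8.39 and 7.95 CPM in WT, at 5.61, 5.04, 5.90 and 4.89 CPM in Akita and at 7.58, 9.43, 7.59, 8.51 and 7.51 CPM in Akita + NACET libraries, with a difference of −0.74 ± 0.18 (adjusted p = 0.0235).

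**Figure D2:**
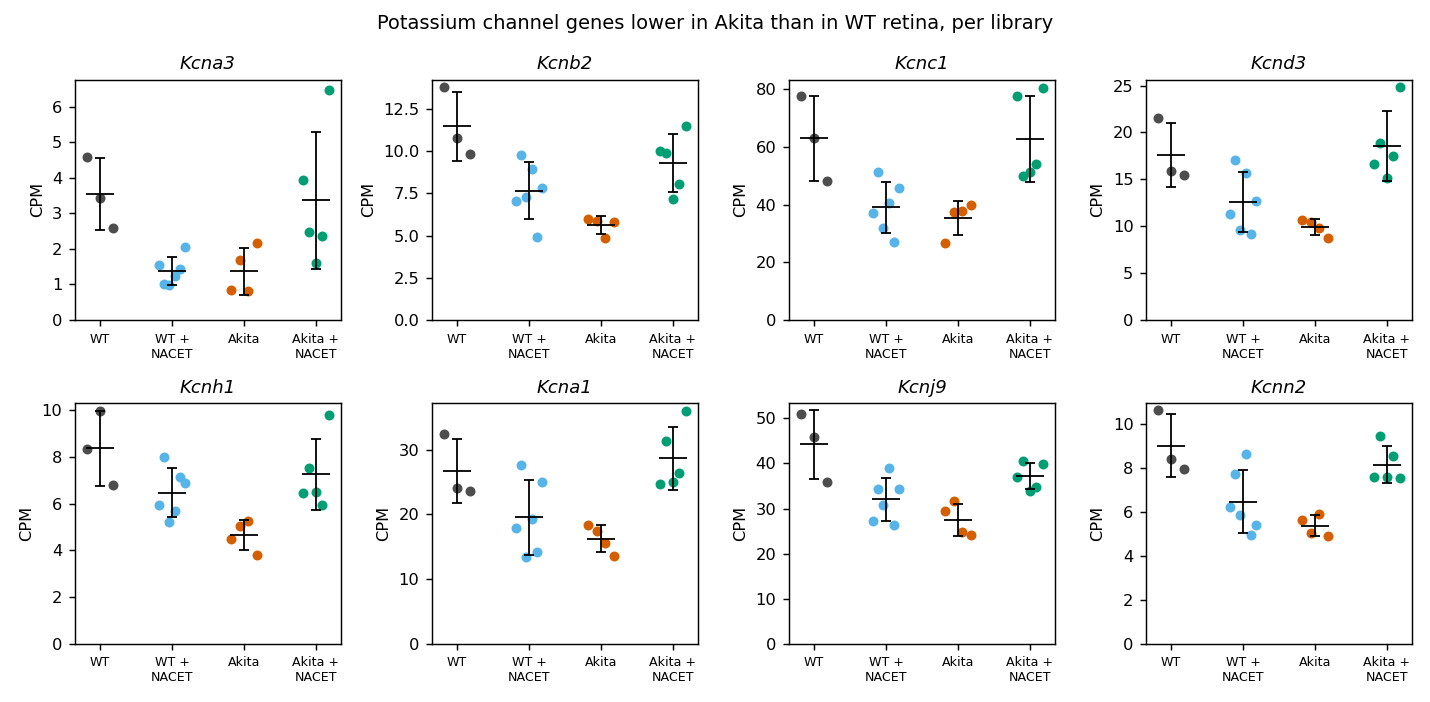
Level in CPM (y axis, from 0) of 8 channel genes called lower in Akita than in WT, by group (x axis); points are libraries, the bar is the mean and the whiskers the SD. For each gene the 4 Akita libraries lie below the 3 WT libraries, and WT + NACET libraries reach into the Akita range.

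Kcnj14 (chromosome 7, 53071837 to 53080117, minus strand) moved the other way. It was at 505, 478 and 635 CPM in WT and at 802, 772, 647 and 1339 CPM in Akita retina. Akita + NACET libraries had 751, 567, 601, 592 and 443 CPM, and WT + NACET libraries 586 to 726 with a median of 606 CPM. All Akita libraries exceeded all WT libraries, the lowest by a small margin, and replicate 4 was far above the rest. The difference was 0.72 ± 0.20 (adjusted p = 0.0338), and 0.46 without Akita replicate 4 (adjusted p = 0.0996). In the same libraries 3 of 7 rod markers were also called higher in Akita, and their summed level, with no marker at 0, was 130425 to 199099 CPM in Akita against 90567 to 124183 CPM in WT. The part of this in the Kcnj14 result was not tested.

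Kcnv2, the photoreceptor subunit, did not pass the test. It was at 546, 617 and 732 CPM in WT and at 707, 683, 636 and 956 CPM in Akita retina (0.24 ± 0.14, adjusted p = 0.281). The ranges overlapped, and Akita replicate 4 was the highest of these libraries. The glial Kcnj10 had means of 18.8 ± 6.45 CPM in WT (SD, n = 3) and 18.4 ± 5.92 CPM in Akita (SD, n = 4), and its difference of −0.03 had a 95% interval from −0.62 to 0.57, which includes a change as large as that of Kcna4. Kcnj8, the pore of vascular ATP-sensitive channels, differed by 1.02 ± 0.51 at 0.332 to 1.16 CPM in Akita libraries (adjusted p = 0.202).

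Most other families leaned the same way without calls. In Akita vs WT none of the 8 two-pore genes, the 7 silent modifiers and the 10 auxiliary subunits was called, with medians of −0.40, −0.28 and −0.35. Kcnma1, the large conductance calcium-activated channel, was lower in all 4 Akita libraries than in any WT library but missed the threshold (−0.90 ± 0.27, adjusted p = 0.0532), as did Kcnj6, a partner of Kcnj9 (−1.13 ± 0.39, adjusted p = 0.0716), and Kcnt1, a sodium-activated channel (−0.74 ± 0.25, adjusted p = 0.0721). An unadjusted p below 0.05 was reached by 32 of the 65 genes and by 4377 of all 16183 genes tested.

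Of the amacrine markers, 3 of 5 tested were lower in Akita than in WT, with a summed level of 195 to 287 CPM against 318 to 439 CPM and no marker at 0. None of the 7 bipolar, 7 ganglion cell and 7 pigment epithelium markers was called, with median log2 fold changes of −0.25, −0.34 and −1.31. Of the endothelial, mural and Mueller glia markers, 1 of 6, 1 of 6 and 1 of 7 were lower. The median log2 fold changes of these lists were −0.98, −0.45 and −0.33, against −0.66 for amacrine markers. Fewer cells of a type and less RNA per cell cannot be told apart in whole retina. The part of RNA from amacrine or these other cells in the channel results was not tested. The call of 12 genes depended on single libraries: 2 genes (Kcnb2 and Kcnj9) were called without Akita replicate 4, 7 without Akita replicate 1, none without WT replicate 1 or without WT replicate 2, where no gene of the whole table was called, and 17 without WT replicate 3. Unadjusted p-values below 0.05 numbered 15 and 29 among the 65 genes in the fits without WT replicate 1 and 2. For all genes such p-values were counted in the main fit only. Once the percentage of reads outside exons entered as a covariate, edgeR called no potassium channel gene and no other gene in Akita vs WT (12 of the 65 with an unadjusted p below 0.05), while the median of the 65 genes was −0.35. That share separates the Akita from the WT libraries, so its effect and that of genotype cannot be told apart.

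The second comparison asked what NACET did in diabetic retina. In Akita + NACET retina 14 of the 65 genes were higher and 2 lower than in Akita, with a median of 0.41 against 0.00 over all genes tested. Among all genes 9.65% were called, 4.51% higher and 5.14% lower, against 21.5% higher and 3.08% lower among the 65. All 5 treated libraries exceeded all 4 Akita libraries for 15 of the 65 genes (23.1%), against 6.69% of all genes. The 12 genes called in Akita vs WT were all called here with the opposite sign, but both comparisons use the same 4 Akita libraries, so their values are not independent.

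Voltage-gated pore-forming genes made up 11 of the 14 higher genes. Kcna3 rose by 1.30 ± 0.37 (adjusted p = 0.0375), Kcnd3 by 0.90 ± 0.18 (adjusted p = 0.0161) and Kcnc1 by 0.82 ± 0.20 (adjusted p = 0.0223). Kcna1, Kcna4, Kcnb2, Kcnh1 and Kcnh2 rose by 0.56 to 0.82. Of these genes Kcna3 alone overlapped between the groups, with 1 treated library at 1.60 CPM under 2 of the Akita libraries.

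Kcna6, a Kv1 channel of axons that had not been called in Akita vs WT, was at 21.5, 24.8, 22.9 and 16.6 CPM in Akita and at 28.9, 31.1, 33.1, 32.4 and 33.1 CPM after NACET (0.56 ± 0.17, adjusted p = 0.0412). The groups did not overlap, but Kcna6 shares up to 2343 exonic bases with Gm17456 on the opposite strand, so reads of the pair cannot be told apart.

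Outside the voltage-gated genes, Kcnj6, Kcnj9 and Kcnn2 rose. Kcnj6 was at 0.982, 0.926, 1.005 and 0.746 CPM in Akita and at 1.45, 3.77, 0.893, 1.55 and 3.33 CPM in Akita + NACET libraries, against 2.08, 1.998 and 1.99 CPM in WT. The treated libraries spread widely and 1 of them lay within the Akita range, at a difference of 1.26 ± 0.35 (adjusted p = 0.0316). Kcnj9 rose by 0.44 ± 0.12 (adjusted p = 0.0361) and Kcnn2 by 0.60 ± 0.16 (adjusted p = 0.0300).

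Kcnj14 fell by 0.59 ± 0.17 on the log2 scale (adjusted p = 0.0374; −0.33 without Akita replicate 4, adjusted p = 0.151), with 1 treated library, at 751 CPM, inside the Akita range. Kcne2, a beta subunit that modifies several voltage-gated pores, was at 75.6, 79.6, 84.9 and 123 CPM in Akita and at 68.3, 53.1, 68.9, 69.5 and 49.2 CPM in Akita + NACET libraries, against 66.1, 71.8 and 90.1 CPM in WT. All treated libraries were below all Akita libraries, and the gene fell by 0.55 ± 0.14 (adjusted p = 0.0270). Rod markers moved in the same direction, with 5 of 7 lower and a summed level of 84330 to 113966 CPM against 130425 to 199099 CPM, and their part in these results was not tested. None of the 5 amacrine markers tested was called, but their summed level was 301 to 351 CPM in Akita + NACET against 195 to 287 CPM in Akita retina, without overlap and with no marker at 0. Among other cells, 1 of 6 endothelial, 1 of 6 mural and 2 of 5 blood markers were higher and 3 of 7 cone markers lower. None of the 7 bipolar, 7 ganglion cell and 7 pigment epithelium markers was called, with median log2 fold changes of 0.18, 0.20 and 1.69. The part of RNA from amacrine or these other cells in the channel results was not tested.

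**Figure D3:**
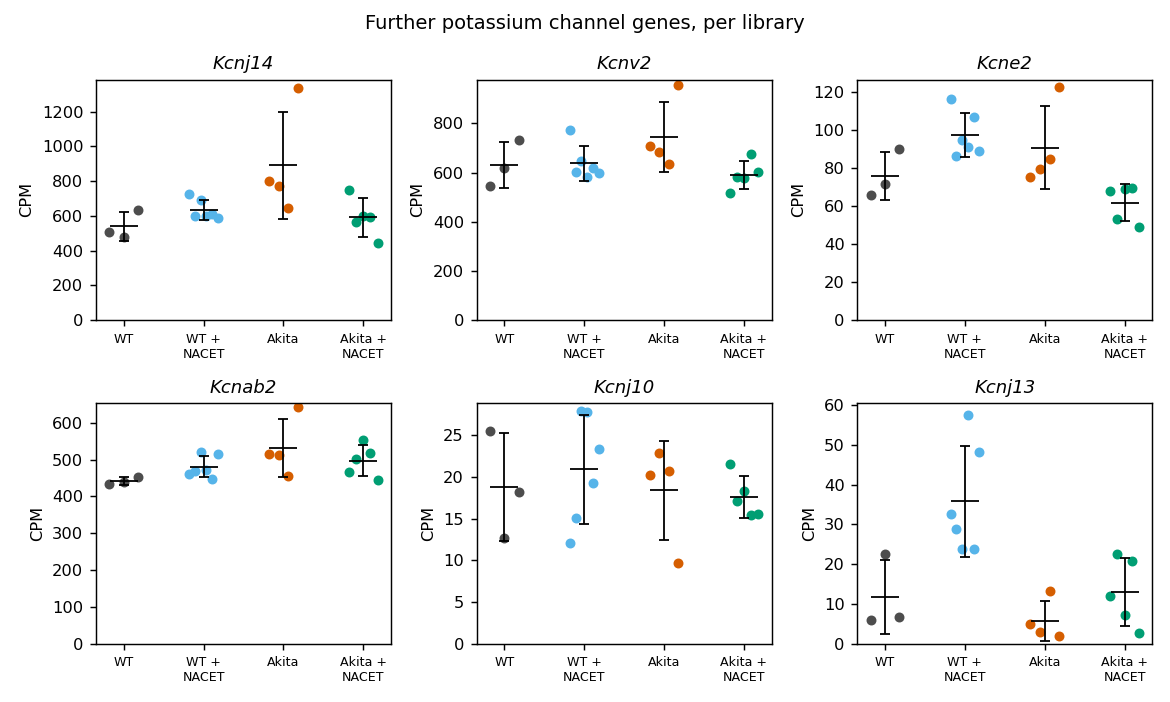
Level in CPM (y axis, from 0) of Kcnj14, Kcnv2, Kcne2, Kcnab2, Kcnj10 and Kcnj13 by group (x axis); points are libraries, the bar is the mean and the whiskers the SD. Akita replicate 4 is the top point for Kcnj14 (1339 CPM), Kcnv2 (956 CPM), Kcne2 (123 CPM) and Kcnab2 (642 CPM), and the 6 WT + NACET libraries are the highest for Kcnj13.

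Kcnd2, which carries A-type current like Kcnd3, and the Kcnip subunits that join these channels did not pass the test. Kcnd2 differed by 0.66 ± 0.22 after NACET (adjusted p = 0.0605), and Kcnip3 and Kcnip4 by 0.09 ± 0.14 and 0.24 ± 0.24 (adjusted p = 0.710 and 0.538). The calls rested on single libraries here too: without Akita replicate 4 none of the 65 genes was called (25 with an unadjusted p below 0.05) and 1 gene of the whole table, without Akita + NACET replicate 5 only Kcnd3, without Akita + NACET replicate 2 only Kcna1, Kcnc1, Kcnd3 and Kcnh2, and 7 and 10 genes without Akita replicates 1 and 3. Over all genes 2.64% were called without Akita + NACET replicate 2, against 9.65% in the main fit. With reads outside exons as a covariate edgeR called 0 of the 65 genes and 0 of all genes tested. Of the 65, 8 had an unadjusted p below 0.05, at a median of 0.31. The share of reads outside exons also separates the Akita from the Akita + NACET libraries, so its effect and that of NACET cannot be told apart.

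**Figure D4:**
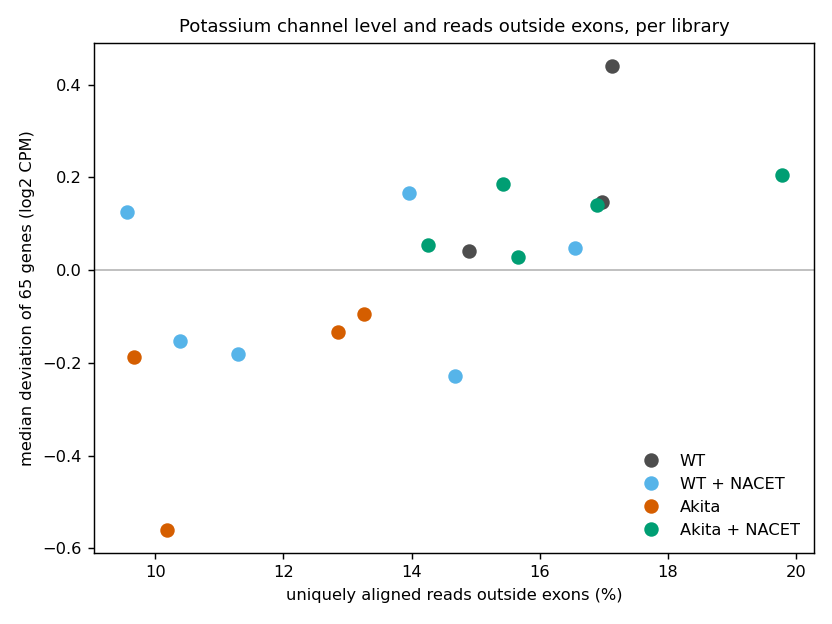
Median deviation of the 65 genes from their own mean over 18 libraries, in log2(CPM + 0.5), against the percentage of uniquely aligned reads outside exons, for each library, coloured by group. The Akita libraries lie between −0.56 and −0.09 and at up to 13.3%, the WT and Akita + NACET libraries above 0 and at 14.3% or more, and WT + NACET libraries between −0.23 and 0.17.

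Seen per library, the median deviation of the 65 genes was −0.09, −0.13, −0.19 and −0.56 in Akita, 0.44, 0.15 and 0.04 in WT, and 0.19, 0.14, 0.05, 0.03 and 0.21 in Akita + NACET. WT + NACET libraries ranged from −0.23 to 0.17 with a median of −0.05. All Akita libraries were below all WT and all Akita + NACET libraries, while the 6 WT + NACET libraries lay on both sides of 0. The same median over all genes tested stayed between −0.02 and 0.02. Akita replicate 4 and WT replicate 1 were the extremes. Calls were lost without each of these, and also without libraries that were not extreme, such as WT replicate 2 (0.15). Whether the level of a library bears on the calls was not tested.

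In normoglycemic retina NACET gave no called potassium channel gene. By edgeR 0 of 65 were called, against 1.48% of all genes tested, and the lowest adjusted p was 0.0654. Of the 65, 19 had an unadjusted p below 0.05, against 3162 of all 16183 genes tested. DESeq2 called 3 of the 65, Kcna3, Kcnc1 and Kcnj9, all lower, but it also called 4.60% of all genes it tested. The median of the 65 was −0.25, and 23 of 24 voltage-gated genes were below 0. Without WT replicate 1 that median was −0.10, and adding the covariate for reads outside exons gave −0.15. Kcna3 was lower in all 6 treated libraries than in any WT library (−1.35 ± 0.37, adjusted p = 0.0657). Kcnj9 differed by −0.47 ± 0.13 (adjusted p = 0.0654) and Kcnc1 by −0.69 ± 0.20 (adjusted p = 0.0852).

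Kcnj13 (chromosome 1, 89282938 to 89291304, minus strand), a channel of the pigment epithelium, had the largest positive difference there. It was at 5.89, 22.6 and 6.80 CPM in WT and at 23.7 to 57.6 with a median of 30.8 CPM in WT + NACET libraries. All treated libraries exceeded all WT libraries, yet the spread was wide (1.62 ± 0.69, adjusted p = 0.219). Markers of the pigment epithelium, of which 0 of 7 were called and none was at 0, summed to 499 to 1021 CPM in WT and 727 to 1753 CPM in WT + NACET libraries, and their part in this value was not tested. Kcnj13 lies within Gigyf2 on the opposite strand and shares up to 355 exonic bases with it.

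Between Akita + NACET and WT 0 of the 65 genes were called, against 0.00618% of all genes, which is 1 gene. An unadjusted p below 0.05 was reached by 2 of the 65, Kcnip3 (−0.39 ± 0.15) and Kcnj8 (1.11 ± 0.48), and by 750 of all 16183 genes tested. DESeq2 called 0 of the 65. The median was −0.04, and the 24 voltage-gated genes had a median of −0.03. For Kcnc1 the difference of 0.00 had a 95% interval from −0.42 to 0.41, for Kcnd3 0.08 from −0.30 to 0.45, and for Kcna3 −0.07 from −0.81 to 0.66. Intervals of this width leave room for moderate differences, so these values do not show equal levels.

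Among treated mice, 9 of the 65 genes differed between Akita and WT, with 8 higher and 1 lower in Akita + NACET (median 0.17). Among all genes 13.3% were called and 6.01% were higher, against 13.8% and 12.3% of the 65, so the total share was near that of all genes. Kcna3 was higher by 1.28 ± 0.33 (adjusted p = 0.0162), Kcnj6 by 0.95 ± 0.30 (adjusted p = 0.0400) and Kcnc1 by 0.69 ± 0.18 (adjusted p = 0.0181). Kcna1, Kcnc4, Kcnd3 and Kcnt1 were also higher. Kcne2 was lower, by −0.66 ± 0.13 (adjusted p = 0.00425). The libraries of the treated groups did not overlap for Kcne2, at 86.6 to 117 CPM in WT + NACET and 49.2 to 69.5 CPM in Akita + NACET retina, and it was 1 of 2 genes called without Akita + NACET replicate 5. Markers of other cells also differed between the treated groups. Mueller glia markers (2 of 7 called lower) summed to 2634 to 2923 CPM in Akita + NACET against 3338 to 4241 CPM in WT + NACET, and astrocyte markers (1 of 4 lower) to 45.0 to 124 CPM against 152 to 320 CPM, neither with overlap. Rod markers (2 of 7 lower) summed to 84330 to 113966 CPM against 113334 to 150861 CPM. Cone markers (4 of 7 lower) summed to 2010 to 2548 CPM against 2681 to 4029 CPM, without overlap. Microglia markers (3 of 6 lower) summed to 18.6 to 31.2 CPM against 34.1 to 48.6 CPM, also without overlap. Of the blood markers 3 of 5 were called higher, and of the mural markers 1 of 6 lower. For bipolar and horizontal cell markers, 1 of 7 and 1 of 5 were higher. No marker of these lists was at 0 in every library of a group, and their part in the channel results was not tested.

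The interaction tested whether the NACET effect differed between genotypes. It was called for 24 of the 65 genes, 22 with a more positive and 2 with a more negative effect of NACET in Akita, at a median of 0.55. Among all genes 20.3% were called and 10.1% in the positive direction, against 36.9% and 33.8% of the 65. Voltage-gated genes made up 14 of the 22. Kcna3 had the largest difference, 2.65 ± 0.53 (adjusted p = 0.00366): its mean was 1.37 ± 0.66 CPM in Akita and 3.37 ± 1.93 CPM in Akita + NACET retina (SD, n = 4 and 5), but 3.54 ± 1.01 CPM in WT and 1.37 ± 0.40 CPM in WT + NACET retina (SD, n = 3 and 6).

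Kcnj6 followed with 2.08 ± 0.49 (adjusted p = 0.00817), then Kcnj12, a strong inward rectifier subunit, with 1.80 ± 0.63 (adjusted p = 0.0487), Kcnc1 with 1.52 ± 0.28 (adjusted p = 0.00314) and Kcnk10, a stretch-sensitive two-pore channel, with 1.51 ± 0.53 (adjusted p = 0.0496). Kcnj12 and Kcnk10 were at the threshold, with mean levels of 1.98 and 1.05 CPM over all libraries. They kept this call in 8 and 6 of 24 alternative fits, against 23 of 24 for Kcna3 and Kcnj6 and 24 of 25 for Kcnc1. Kcne2 (−0.91 ± 0.21, adjusted p = 0.00791) and Kcnj14 (−0.83 ± 0.25, adjusted p = 0.0266) were the pair with the negative sign. Genes called here and in none of the 2-group comparisons were Kcna5, Kcnc2, Kcnj12, Kcnk10, Kcnk12 and Kcnma1. Between 17 and 24 genes were called when each library was left out in turn. Including reads outside exons as a covariate left 0 (10 with an unadjusted p below 0.05), at a median of 0.49 for the 65. Over all genes tested that fit called 0.105%. All 7 rod markers had a negative called interaction and 1 of 5 amacrine markers a positive one, and their part in the interaction of the channel genes was not tested.

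Partners, anchors and transporters of potassium channels moved in both directions. Of 31 such genes tested, 2 were higher and 4 lower in Akita than in WT, and NACET left 4 higher and 3 lower in Akita retina. These are 19.4% and 22.6% of the 31, against 7.64% and 9.65% of all genes tested. Dpp6, a membrane-spanning partner of A-type channels, was lower in Akita (−0.68 ± 0.14, adjusted p = 0.0162) and higher with NACET (0.55 ± 0.12, adjusted p = 0.0204). Adam22 and Adam11, membrane proteins that anchor Kv1 channels, were also lower in Akita (−0.66 ± 0.18 and −0.80 ± 0.21, adjusted p = 0.0360 and 0.0299) and higher with NACET (0.69 ± 0.16 and 0.65 ± 0.19, adjusted p = 0.0210 and 0.0401).

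Cntnap1, a paranodal adhesion protein, was higher with NACET alone (0.67 ± 0.19, adjusted p = 0.0321), and Aqp4, the water channel found beside Kcnj10 in glial endfeet, was lower in Akita (−0.54 ± 0.13, adjusted p = 0.0235). Aqp4 means were 70.0 CPM in WT, 48.1 CPM in Akita and 47.6 CPM in Akita + NACET retina. Its difference was −0.02 ± 0.12 with NACET in Akita (adjusted p = 0.948). Between Akita + NACET and WT it was −0.55 ± 0.12 (adjusted p = 0.436). Dlg4, a scaffold that is also abundant in photoreceptor terminals, and Slc24a1, the sodium, calcium and potassium exchanger of rods, went the opposite way to Dpp6, with 0.66 ± 0.13 and 0.66 ± 0.17 in Akita vs WT (adjusted p = 0.0151 and 0.0291) and −0.74 ± 0.11 and −0.63 ± 0.15 with NACET (adjusted p = 0.0104 and 0.0210). In WT retina Dlg4 was the single called gene of the 31 after NACET, with 0.52 ± 0.12 (adjusted p = 0.0289), and between Akita + NACET and WT none was called.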

How the data were processed

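Retinal poly(A) RNA of 18 libraries was measured. According to the methods of the study, the authors made TruSeq libraries, aligned single-end reads to mm9 with TopHat2 2.1.0 and counted them over exons with HTSeq 0.11.2 without strand; the deposited values are these raw counts per gene. Reads with ambiguous overlap and multiple alignments are not counted, which lowers paralogs and overlapping genes. Here 185 ribosomal RNA genes (0.977% of counts on average) and an entry without a name (0.00544%) were removed. Gene coordinates and exon lengths come from the mm9 annotation, which held all 92 genes. Genes were tested by quasi-likelihood in edgeR 4.0.16 under R 4.3.3 (TMM, minimum count 10, minimum total 15, robust dispersion, 4 groups in 1 fit; 16183 genes tested), with Benjamini-Hochberg adjustment over all genes and calls at an adjusted p of at most 0.05 with no fold minimum. The study used DESeq2, run here as an alternative (1.42.0). SE was derived from the F statistic, and levels are CPM on TMM-scaled library sizes. The test was tried on simulated data. The depth of 11495596 to 17814480 counts leaves genes under 1 CPM with few reads and a larger error.

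Potassium channel genes, families, partner and marker lists were chosen with earlier results of these data known. Genes named with values are, per comparison, up to 5 called genes with the largest change in each direction, a fixed list of 24 retinal channels, the 5 with the highest level per kb and those beside the 0.5 CPM threshold; genes called in several comparisons are listed, and others (Kcnt1, Kcnh2, Kcnn2, Kcna4) were chosen after their values were seen. No pair of replicates agreed within sampling noise (chi-square per gene of at least 5.65), so each library counted once. Alternatives were DESeq2 size factors, DESeq2, 2-group fits, no filter, a mean count of at least 50, a replicate block, reads outside exons as a covariate, ribosomal RNA kept, at least 1 CPM, and each library left out in turn. Some genes that these rules name are not reported here.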

Additional observations from a re-analysis of the deposited data

Results flagged for a closer look

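Within groups of at least 4 libraries, 81 sets were examined, each a named gene in 1 group. In 5 of these sets, about as many as chance gives (1 in 20), the gap to 1 library took most of the range, however small that range was. These were Kcnb2 in Akita replicate 3 (4.83 CPM), Kcnj2, an inward rectifier, in Akita + NACET replicate 1 (3.86 CPM), Kcnj6 in WT + NACET replicate 2 (1.72 CPM), Kcnj8 in Akita + NACET replicate 2 (1.24 CPM) and Kcnv2 in WT + NACET replicate 1 (774 CPM).

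For 15 of the reported genes named by rule, the NACET effect differed between genotypes (edgeR interaction, adjusted p of at most 0.05). In log2 units, Akita minus WT, the difference was 2.65 for Kcna3, 2.08 for Kcnj6, 1.80 for Kcnj12, 1.52 for Kcnc1, 1.51 for Kcnk10, 1.39 for Kcnd3, 1.35 for Kcnma1, 1.32 for Kcnb2 and 1.27 for Kcna1. It was 1.0 for Kcnh1, 0.90 for Kcnj9, 0.89 for Kcnc2, 0.83 for Kcna6, −0.83 for Kcnj14 and −0.91 for Kcne2. The interaction was also called for Kcna4, Kcnh2, Kcnn2 and Kcnt1, which were chosen after their values were seen. Among all genes tested 20.3% were called. Some of the genes were named because their interaction was large, so their number is a list and not a test. With reads outside exons as a covariate none kept its call, and 0.105% of all genes were called. In most alternative fits Kcnj12 and Kcnk10 lost theirs.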

How the results depend on the processing

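Of the potassium channel genes, 12 were called for Akita vs WT, then 16 for Akita + NACET vs Akita, 0 in WT + NACET vs WT, 9 in Akita + NACET vs WT + NACET and 24 in the interaction. With only the 2 groups in the fit 3 were called in Akita vs WT and 1 in WT + NACET vs WT, against 0.967% and 1.71% of all genes. DESeq2 called 16, 23, 3, 13 and 24 in the order of the first sentence. Of all genes it tested, it called 13.57, 15.56, 4.60, 18.15 and 22.39%. With reads outside exons as a covariate the counts were 0 in all 6 comparisons. Over all genes that fit called 0, 0, 0.377, 1.20 and 0.105% in the order of the first sentence. With a replicate block the counts were 7, 2 and 1 in the first 3 comparisons, against 3.13%, 1.35% and 1.17% of all genes. Same-numbered libraries of different groups correlated at −0.332 to 0.345, with 4 of 22 pairs over 0.1, so the numbers were not taken as pairs. Leaving out each library in turn gave 0 to 17 for Akita vs WT, then 0 to 16 for Akita + NACET vs Akita, 0 to 2 in WT + NACET vs WT (2 without WT + NACET replicate 2), 2 to 9 in Akita + NACET vs WT + NACET (4 without WT + NACET replicate 3 or 5, and 5 without Akita + NACET replicate 2 or WT + NACET replicate 1) and 17 to 24 in the interaction. The median log2 fold change ran from −0.53 to −0.26 for Akita vs WT, −0.31 to −0.10 for WT + NACET vs WT and −0.11 to 0.07 for Akita + NACET vs WT, the highest value of each without WT replicate 1; the medians under alternatives were added after seeing the data. Over all genes the share called also moved when a library was left out. Without Akita + NACET replicates 1, 2, 3 and 4 it was 9.54, 2.64, 10.91 and 5.41% in Akita + NACET vs Akita. In Akita + NACET vs WT + NACET it was 11.41, 8.51, 15.05 and 8.33%. The causes of these shifts were not tested. No called gene changed direction in any of these fits, and none kept its call in all of them.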
